A study of Mus musculus with 12 samples.

Results

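The 41 genes described here encode proteins of autophagy and of the lysosome, together with the transcription factors TFEB and TFE3 and the regulator FLCN. They were given as a list of gene symbols, drawn up with earlier results of these data known, and no value threshold was used to choose them. All 41 were found among the 35580 genes of the tables, and all 41 were among the 17424 genes with enough counts to be tested. RNA was sequenced from R1 mouse ESCs (embryonic stem cells) of 2 genotypes, the parental WT line and a line with the whole *Cidea* locus deleted by CRISPR-Cas9 (Cidea -/-, here CIDEA KO). Both were sampled as ESCs grown with LIF and 10% FBS (0 h) and as spheroids 24 h and 48 h after induction. Spheroids were formed with growth factor-reduced Matrigel, 15% FBS and no LIF. Per the paper, cells for molecular experiments were seeded on a Matrigel layer and then given medium containing Matrigel. There were 2 libraries for each genotype and time and 12 in all. The CIDEA KO libraries all came from 1 subclone, 19.7, so an effect of losing *Cidea* cannot be told apart from other differences between that clone and its parent. Libraries summed to between 29 and 38.51 M estimated counts. *Cidea* had 89, 67, 117, 46, 20 and 21 counts in the WT libraries, in order of time and replicate, and 0 in the 6 CIDEA KO libraries. The number of genes with counts was 15577 in CIDEA KO replicate 1 at 24 h and 17634 to 19825 in the other 11 libraries. Of the marker genes, 9 of 9 naive pluripotency genes fell and 6 of 6 primed genes rose from 0 h to 48 h in each genotype. Summed TPM of 6 macrophage markers was 26.8 to 59.2. Of these, *Ptprc*, *Csf1r*, *Adgre1*, *Itgam* and *Lyz2* were under 1 TPM in every library, so *Cd68* made up most of that sum. Summed TPM of 12 extraembryonic endoderm markers was 95.5 to 195, with *Foxa2* and *Afp* under 1 TPM in every library. How the endoderm sum divides among its other markers is not given here.

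Autophagy encloses cytoplasm, organelles or lipid droplets in a double membrane, the autophagosome, and delivers them to the lysosome for breakdown. The ULK1 kinase complex starts the process, the class III PI3-kinase complex marks the forming membrane, and a ubiquitin-like conjugation system then acts on that membrane. Lysosomes then digest the contents with acid hydrolases. TFEB, TFE3 and MITF are related transcription factors of the MiT family that bind E-box elements in many lysosomal and autophagy genes. FLCN (folliculin) acts on the Rag GTPases at the lysosomal surface and keeps TFE3 out of the nucleus, and in mouse ESCs this is needed for exit from the naive state. RNA levels do not measure the location of TFE3 or the flux of autophagy.

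The E-box bound by MiT factors has the core CACGTG, which reads the same on both strands. Windows of 250 bases before a RefSeq gene start (GRCm38.p6) were found for 34 of the 41 genes, and CACGTG was present in the windows of 7 of them (20.6%): *Atg3*, *Atg5*, *Atg7*, *Ctsd*, *Ctsl*, *Lamp1* and *Mcoln1*. Counted by window, these were 7 of 40 windows of the 34 genes (17.5%), beside 6.02% of all 32851 windows. The longer form GTCACGTG, counted on both strands and containing the core, was in 5 of the 34 genes (12.5% of their windows) and in 1.85% of all windows, and TCACGTGA, also containing the core, was in 3 of the 34 (*Atg3*, *Ctsd* and *Mcoln1*, 7.5% of windows) and in 0.785% of all windows. *Lamp1* held 4 copies of the core, 61, 45, 28 and 15 bases before its start. *Mcoln1* held 2, at 71 and 45 bases, of which the second lies past the GENCODE gene start and is not printed. The *Ctsd* copy 98 bases before its RefSeq start also lies past the GENCODE start. For *Ctsl* and *Atg7* the whole window lies inside the gene as GENCODE annotates it, so their copies are not upstream of that gene start. *Hexa* and *Tfeb*, the genes with the largest falls described below, had no CACGTG in their windows. Of the genes with it, *Ctsd*, *Ctsl*, *Lamp1* and *Mcoln1* were also called lower at 24 h than at 0 h in each genotype. *Atg3* was called lower then in CIDEA KO cells only, and *Atg5* and *Atg7* were not called. *Tfeb* had several windows, of which only the first is printed. The windows are shown so that the lysosomal genes with and without the E-box can be read side by side, with *Atg5*, which differed between genotypes, and with the CACGTG core in capitals. They lie at chr8:13158911-13159160 for *Lamp1*, chr8:3500269-3500456 for *Mcoln1*, chr10:44268089-44268338 for *Atg5*, chr9:59539290-59539539 for *Hexa* and chr17:47736787-47737029 for *Tfeb*, all on the plus strand. A match in letters is not evidence of binding.
Lamp1: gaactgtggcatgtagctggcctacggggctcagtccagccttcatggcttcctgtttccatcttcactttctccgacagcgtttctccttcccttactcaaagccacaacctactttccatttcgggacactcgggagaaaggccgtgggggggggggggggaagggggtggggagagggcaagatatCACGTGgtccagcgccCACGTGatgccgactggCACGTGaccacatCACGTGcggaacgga
Mcoln1: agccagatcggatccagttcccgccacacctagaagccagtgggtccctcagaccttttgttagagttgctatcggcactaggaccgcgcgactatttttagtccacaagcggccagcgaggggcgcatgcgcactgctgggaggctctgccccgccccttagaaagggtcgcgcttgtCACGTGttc
Atg5: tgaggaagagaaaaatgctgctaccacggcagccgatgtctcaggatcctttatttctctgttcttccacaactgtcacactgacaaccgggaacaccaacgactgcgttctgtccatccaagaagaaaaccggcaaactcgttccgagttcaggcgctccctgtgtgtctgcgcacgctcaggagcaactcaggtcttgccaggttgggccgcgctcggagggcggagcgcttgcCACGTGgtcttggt
Hexa: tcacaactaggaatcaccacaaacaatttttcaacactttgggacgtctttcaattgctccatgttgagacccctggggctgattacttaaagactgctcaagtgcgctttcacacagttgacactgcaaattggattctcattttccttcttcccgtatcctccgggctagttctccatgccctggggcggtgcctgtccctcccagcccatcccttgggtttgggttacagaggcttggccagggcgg
Tfeb: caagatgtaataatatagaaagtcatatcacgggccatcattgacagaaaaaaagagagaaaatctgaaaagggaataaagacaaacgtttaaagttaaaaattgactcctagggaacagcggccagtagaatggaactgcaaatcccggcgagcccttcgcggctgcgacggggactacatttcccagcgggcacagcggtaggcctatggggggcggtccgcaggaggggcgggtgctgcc

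The first question was how these genes moved as WT ESCs formed spheroids and left the naive state. Levels are given as TPM (transcript abundance scaled by length and by the library total), and changes as log2 fold changes ± SE. The changes were fitted by edgeR on the estimated counts and called at an adjusted p under 0.05 (Benjamini-Hochberg over all genes tested). The SE was derived from the change and the F statistic of its test. Intervals take the normal distribution around the change, so they are approximate and may be too narrow. In WT cells, 16 of the 41 genes fell and 3 rose from 0 h to 48 h, while 12.5% of all genes tested fell and 11.1% rose. The median change of the 41 genes was -0.37, against 0.02 for all genes tested. In bulk RNA, fewer cells of a type and less RNA per cell cannot be told apart. By 24 h 19 genes had fallen and 3 had risen against 0 h, beside 7.47% and 7.54% of all genes. From 24 h to 48 h, 3 fell and 3 rose, beside 4.86% and 3.28%. In CIDEA KO cells, 19 fell and 3 rose from 0 h to 48 h, with a median of -0.49, beside 12.8% and 12.1% of all genes. There 16 had fallen and 3 had risen by 24 h, beside 9.33% and 9.24%, and 4 fell and 4 rose from 24 h to 48 h, beside 5.37% and 4.57%. The genes called at 48 h against 0 h in both genotypes, each in the same direction, numbered 18. This was 94.7% of those called in WT and 81.8% of those called in CIDEA KO cells. The matching overlap over all genes tested is not given here, so these shares are not read as particular to the 41 genes. *Atg5* was in none of the 6 counts over time, so they are the same without it. Summed over the 41 genes, the level was 3072 and 3166 TPM in the WT ESC libraries and between 2133 and 2284 TPM in the 4 WT spheroid libraries.

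The 24 h counts depended on how transcript length was treated. With average transcript lengths as offsets, 12 genes were called at 24 h against 0 h in WT cells in place of 22, and 17 at 48 h in place of 19. Without WT replicate 1 at 24 h, 14 were called at 24 h, and in the step from 24 h to 48 h 3 were called in place of 6.

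**Figure D1:**
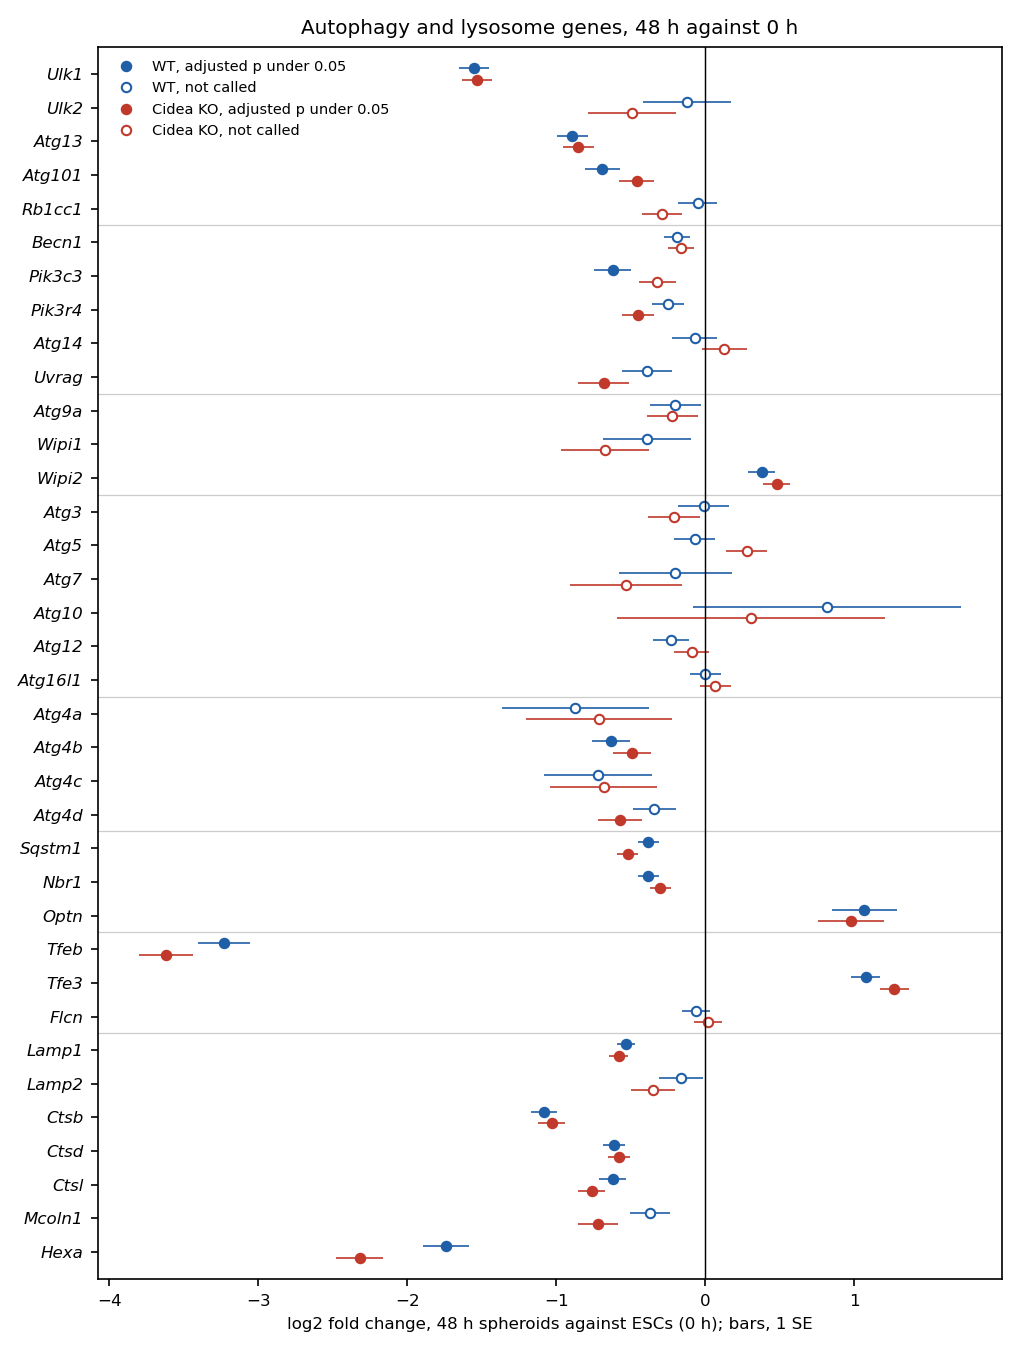
Log2 fold change from 0 h to 48 h of 36 of the 41 genes, in WT (blue) and CIDEA KO (red) cells, with bars of 1 SE and filled points for genes called by edgeR. Genes are grouped by role between the grey lines. *Tfeb* lies farthest to the left in both genotypes, and *Tfe3*, *Optn* and *Wipi2* are the filled points to the right of 0.

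Of the 41 genes, *Tfeb* had the largest change from 0 h to 48 h in both genotypes, while at 24 h *Hexa* had the larger fall. *Tfeb* had 61.5 and 63.4 TPM in WT ESCs, 13 and 10.6 TPM at 24 h and 14.6 and 8.61 TPM at 48 h, and the ESC libraries did not overlap with the spheroid libraries. Its estimated counts fell by 3.23 ± 0.174 on the log2 scale from 0 h to 48 h in WT cells (adjusted p = 4.2e-11). It was smaller with limma on log2(TPM + 1), at -2.37, and was still called there. In CIDEA KO cells *Tfeb* went from 51.0 and 49.9 TPM through 7.03 and 10.1 TPM to 2.99 and 4.76 TPM, a log2 change of -3.62 ± 0.181 (adjusted p = 9.6e-12). Most of the fall took place in the first 24 h, with log2 changes of -2.38 ± 0.166 in WT and -2.55 ± 0.169 in CIDEA KO cells. The smaller fall from 24 h to 48 h in WT cells (-0.84 ± 0.168, adjusted p = 0.00262) was -0.02 with average transcript lengths as offsets and was not called there, nor without WT replicate 1 at 24 h (-1.03 to -0.64 over the 12 fits that each left out 1 library).

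*Tfe3* moved the other way. It had 27.9 and 43.4 TPM in WT ESCs, 74.9 and 67.0 TPM at 24 h and 90.5 and 90.3 TPM at 48 h. The rise from 0 h to 48 h was 1.08 ± 0.0979 in log2 in WT cells (adjusted p = 7.2e-08), and all 4 spheroid libraries lay above both ESC libraries. In CIDEA KO cells the levels were 33.3 and 27.7 TPM, then 41.7 and 65.9 TPM, then 86.0 and 81.7 TPM, with a log2 change of 1.27 ± 0.0985 (adjusted p = 5.9e-09). *Tfeb* was above *Tfe3* in 4 of the 4 ESC libraries and in 0 of the 8 spheroid libraries at 24 h and 48 h. The ratio of *Tfe3* to *Tfeb* TPM was 0.453 to 0.684 at 0 h, 5.75 to 6.53 at 24 h and 6.21 to 28.7 at 48 h. These ranges pool the genotypes, and at 48 h both CIDEA KO libraries lay above both WT libraries. *Flcn* stayed between 31.8 and 40.6 TPM in WT libraries and between 34.2 and 38.0 TPM in CIDEA KO libraries.

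For *Flcn*, WT values were 39.7 and 40.5 TPM at 0 h, 31.8 and 33.0 TPM at 24 h and 40.6 and 40 TPM at 48 h. CIDEA KO values were 38.0 and 35.7, 34.2 and 34.9, and 35.4 and 36.4 TPM. The dip at 24 h in WT cells was called (log2 change of -0.29 ± 0.0955, adjusted p = 0.0427). It was no longer called in 10 of the 12 fits that each left out 1 library, nor without the filter on low counts, nor in either fit that used transcript lengths, nor with protein-coding transcripts only. At 48 h against 0 h the change was -0.06 ± 0.0953 in WT cells, with a 95% interval of -0.25 to 0.12. *Mitf* had 21.4 and 19.9 TPM in WT ESCs and 2.2 and 2.79 TPM at 48 h, and fell by 2.88 ± 0.229 in WT and by 2.92 ± 0.229 in CIDEA KO cells on the log2 scale. *Tfec*, the fourth family member, was at 0.423 TPM or less in every library.

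**Figure D2:**
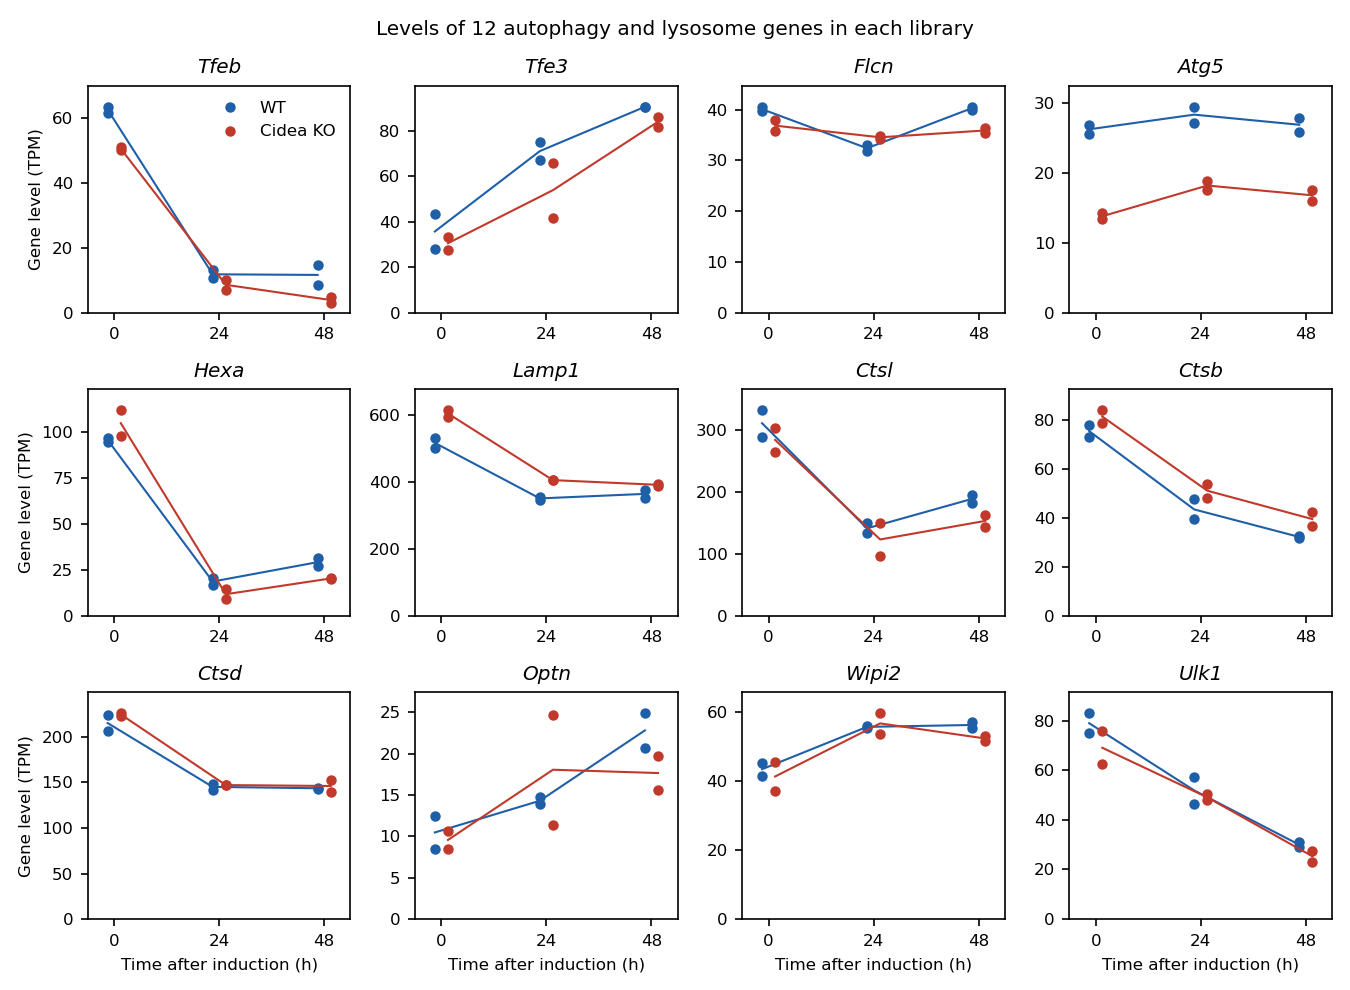
TPM of 12 of the genes in each library at 0, 24 and 48 h, in WT (blue) and CIDEA KO (red) cells, with 1 point per library and lines through the means of 2 libraries. *Tfeb* and *Hexa* drop by 24 h, *Tfe3* climbs to between 81.7 and 90.5 TPM at 48 h, and *Atg5* is lower in every CIDEA KO library than in every WT library.

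The 7 lysosomal genes comprised the membrane proteins LAMP1 and LAMP2, the proteases cathepsin B, D and L, the calcium channel mucolipin 1 (*Mcoln1*) and the alpha subunit of beta-hexosaminidase (*Hexa*), which breaks down gangliosides. All 7 were called lower at 24 h than at 0 h in each genotype. In WT cells the call of *Mcoln1* was lost in 8 of the 12 fits that each left out 1 library (-0.46 to -0.33), those without a library of either genotype at 0 h, of WT at 24 h or of CIDEA KO at 48 h, and with transcript lengths as offsets. At 48 h, 5 of them were lower than at 0 h in WT cells and 6 in CIDEA KO cells. Summed, they gave 1265 and 1310 TPM in WT ESCs, 758 and 753 TPM at 24 h and 817 and 848 TPM at 48 h.

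*Hexa* fell most. Its level was 94.7 and 96.5 TPM in WT ESCs, 16.9 and 20.4 TPM at 24 h and 31.3 and 27.1 TPM at 48 h. In CIDEA KO cells it was 97.5 and 112 TPM, then 9.04 and 14.5 TPM, then 20.5 and 20.2 TPM. The log2 change at 24 h was -2.41 ± 0.159 in WT and -3.20 ± 0.166 in CIDEA KO cells, and from 24 h to 48 h *Hexa* rose by 0.67 ± 0.155 (adjusted p = 0.011) and 0.88 ± 0.16 (adjusted p = 0.00149). In WT cells that later rise was not called without WT replicate 1 at 24 h (0.53 to 0.82 over the 12 fits that each left out 1 library) or at 48 h, nor with transcript lengths as offsets. At 48 h it was still 1.74 ± 0.155 below its 0 h level in log2 in WT cells.

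*Ctsl* had 289 and 332 TPM in WT ESCs, 133 and 149 TPM at 24 h and 182 and 195 TPM at 48 h. It fell by 1.18 ± 0.0905 and then rose by 0.56 ± 0.0898 in WT cells, and it fell by 1.25 ± 0.0908 and then rose by 0.50 ± 0.09 in CIDEA KO cells. The later rise was not called in either genotype with transcript lengths as offsets or with limma. *Ctsb* had 77.8 and 73.2 TPM, then 47.6 and 39.4 TPM, then 32.5 and 32.0 TPM in WT cells. CIDEA KO libraries had 78.7 and 84.2, 54 and 48.3, and 42.4 and 36.7 TPM, and its fall to 48 h was 1.08 ± 0.0892 in WT and 1.03 ± 0.089 in CIDEA KO cells. *Ctsd* was 0.61 ± 0.0734 lower in WT and 0.58 ± 0.0733 lower in CIDEA KO cells at 48 h, with nearly all of the change by 24 h.

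*Lamp1* was the most abundant of the 41 genes, at 500 and 531 TPM in WT ESCs, 354 and 346 TPM at 24 h and 352 and 375 TPM at 48 h. It fell by 0.53 ± 0.0621 in WT and by 0.58 ± 0.0621 in CIDEA KO cells at 48 h. *Lamp2*, whose isoforms differ in their membrane anchor, fell by 0.60 ± 0.148 at 24 h in WT cells, and its change at 48 h was -0.16 ± 0.147. The call at 24 h was lost without WT replicate 2 at 0 h or WT replicate 1 at 24 h (-0.67 to -0.50) and with transcript lengths as offsets. *Mcoln1* changed by -0.37 ± 0.135 at 48 h in WT cells (adjusted p = 0.0511) and fell by 0.72 ± 0.135 in CIDEA KO cells.

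Genes at the start of autophagy were mixed. In the ULK1 complex, *Ulk1*, *Atg13* and *Atg101* fell from 0 h to 48 h in both genotypes, and *Ulk2* and *Rb1cc1* (FIP200) were not called. The fall of *Atg101* in CIDEA KO cells was not called without replicate 2 at 0 h or at 48 h (-0.52 to -0.41). *Ulk1*, the kinase, had 83.1 and 74.9 TPM in WT ESCs, 57.2 and 46.6 TPM at 24 h and 31.1 and 28.9 TPM at 48 h. It fell in both steps, by 0.76 ± 0.0967 and 0.79 ± 0.0976 in log2, and in CIDEA KO cells, with 75.8 and 62.4, 47.9 and 50.3, and 23.1 and 27.6 TPM, by 0.53 ± 0.0966 and 0.99 ± 0.0981. The 3 times did not overlap in either genotype. In the PI3-kinase complex, *Pik3c3* (VPS34) fell by 0.62 ± 0.124 from 0 h to 48 h in WT cells. Over the same step *Pik3r4* (by 0.45 ± 0.106) and *Uvrag* (by 0.68 ± 0.171) fell in CIDEA KO cells. These calls of *Pik3r4* and *Uvrag* were lost with transcript lengths as offsets and with limma, and that of *Uvrag* also with protein-coding transcripts alone. In the other genotype each changed in the same direction without a call: *Pik3c3* by -0.32 ± 0.124, *Pik3r4* by -0.25 ± 0.106 and *Uvrag* by -0.39 ± 0.169. At 24 h *Uvrag* was called lower in WT cells (-0.76 ± 0.17, adjusted p = 0.00403 by edgeR), a call lost under those same alternatives and without WT replicate 1 at 24 h. *Becn1* and *Atg14* were not called in either genotype. For *Becn1*, 7.04% of its TPM was in protein-coding and 46.6% in retained-intron transcripts, so its gene sum says little of its coding RNA. Of *Atg9a*, which encodes the membrane protein of autophagosome seeds, and the phosphoinositide binders *Wipi1* and *Wipi2*, *Wipi2* rose by 0.38 ± 0.092 in WT and 0.48 ± 0.0922 in CIDEA KO cells. *Wipi2* had 41.5 and 45.2 TPM in WT ESCs and 55.3 to 56.9 TPM in the 4 WT spheroid libraries, and 45.5 and 37.0 TPM in CIDEA KO ESCs and 51.6 to 59.6 TPM in the 4 CIDEA KO spheroid libraries. In WT cells this rise was not called without WT replicate 1 at 0 h (0.26 to 0.52 over the 12 fits) nor with transcript lengths as offsets. With limma it was called in neither genotype. *Wipi1* was called lower at 24 h in CIDEA KO cells (-1.14 ± 0.298), though not without either CIDEA KO replicate at 0 h (-1.27 to -1.01), and was not called at 48 h.

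The conjugation genes (*Atg3*, *Atg5*, *Atg7*, *Atg10*, *Atg12* and *Atg16l1*) had 0 of 6 called at 48 h in each genotype and medians of -0.04 and -0.01. In WT cells 0 of 6 were also called at 24 h, and in CIDEA KO cells *Atg3* was called there (-0.56 ± 0.174, adjusted p = 0.0277), though not without either CIDEA KO replicate at 0 h or CIDEA KO replicate 1 at 24 h (-0.69 to -0.44). Among the ATG4 cysteine proteases, *Atg4b* fell in both genotypes (by 0.63 ± 0.127 in WT cells). The WT change was -1.28 with transcript lengths as offsets and -0.47 with protein-coding transcripts alone, and the CIDEA KO call was lost with transcript lengths as offsets and with limma. *Atg4d* was called in CIDEA KO cells alone, with a log2 change of -0.57 ± 0.147, and 93.4% of its TPM was in retained-intron transcripts. With protein-coding transcripts alone its change was 0.06 (adjusted p = 0.956), and it was not called without CIDEA KO replicate 2 at 48 h (-0.72 to -0.45), nor was *Atg4b* in those cells (-0.56 to -0.42).

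Of the cargo receptors, *Sqstm1* (p62) and *Nbr1* fell and *Optn* (optineurin) rose at 48 h in both genotypes. *Optn* had 12.5 and 8.44 TPM in WT ESCs, 14.7 and 13.9 TPM at 24 h and 20.7 and 24.9 TPM at 48 h, a rise of 1.07 ± 0.22 (adjusted p = 0.00136). In CIDEA KO cells, with 8.43 and 10.7, 24.7 and 11.4, and 19.7 and 15.6 TPM, the rise was 0.98 ± 0.221 (adjusted p = 0.00273). There it was not called without CIDEA KO replicate 1 at 0 h or at 48 h (0.73 to 1.18 over the 12 fits) nor with transcript lengths as offsets. With limma the rise of *Optn* was called in neither genotype. *Sqstm1* fell by 0.38 ± 0.073 in WT and by 0.52 ± 0.0731 in CIDEA KO cells, and the fall of *Nbr1* in CIDEA KO cells was not called without replicate 2 at 0 h (-0.39 to -0.24). With transcript lengths as offsets *Nbr1* was called in neither genotype.

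The wider pathway was read from other lists of genes, none of them members. At 48 h against 0 h, 12.5% of all genes tested fell and 11.1% rose in WT cells. In CIDEA KO cells these shares were 12.8% and 12.1%. Of 43 other lysosomal hydrolases and their cofactors tested, 18 fell and 1 rose in WT cells at 48 h (median -0.33), and 19 fell and 1 rose in CIDEA KO cells (median -0.51). The largest falls in WT cells were in *Glb1* (beta-galactosidase, -1.58 ± 0.0901), *Manba* (beta-mannosidase, -1.51 ± 0.0883) and *Idua* (alpha-L-iduronidase, -1.47 ± 0.377), and *Fuca1* (alpha-L-fucosidase) rose by 0.61 ± 0.143. Of the 16 subunits and accessory proteins of the V-ATPase, the pump that acidifies lysosomes, 9 fell and 0 rose in WT cells and 11 fell and 0 rose in CIDEA KO cells. *Atp6v1g1* (-0.76 ± 0.142), *Atp6v0d1* (-0.69 ± 0.0804) and *Atp6ap2* (-0.67 ± 0.112) fell most in WT cells. Other lysosomal membrane and sorting genes had 4 of 22 lower and 1 higher in WT cells and 6 lower and 3 higher in CIDEA KO cells. Called in either direction were 22.7% of them in WT cells, near the 23.6% of all genes. In CIDEA KO cells it was 40.9%, beside 25.0%. The called genes in WT cells included *Cd63* (-0.84 ± 0.133), *Tpcn1* (-0.76 ± 0.165) and *Scarb2* (-0.55 ± 0.126) among the lower and *Gnptab* (0.48 ± 0.106) as the higher one.

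Of the other autophagy genes, 7 of 30 fell and 2 rose in WT cells at 48 h, with a median of -0.05, and in CIDEA KO cells 6 fell and 3 rose. That was 30.0% called in each genotype, beside 23.6% of all genes in WT and 25.0% in CIDEA KO cells. *Retreg1*, a receptor for autophagy of the endoplasmic reticulum, fell by 1.22 ± 0.29, *Trp53inp2* by 1.20 ± 0.149 and *Wdr45* by 1.18 ± 0.178 in WT cells, while the mitophagy receptor *Bnip3* rose by 0.51 ± 0.165 and *Trp53inp1* by 0.27 ± 0.0826. Of 31 genes of the FLCN, Rag GTPase and mTORC1 system, 5 fell and 6 rose in WT cells and 8 fell and 4 rose in CIDEA KO cells. Called in either direction were 35.5% of them in WT and 38.7% in CIDEA KO cells, beside the same shares of all genes. *Sesn3* (1.09 ± 0.141), *Rragd* (0.96 ± 0.142) and *Castor2* (0.89 ± 0.279) rose most and *Lamtor2* (-0.57 ± 0.162), *Depdc5* (-0.48 ± 0.11) and *Sesn2* (-0.40 ± 0.0866) fell most. *Lipa*, which encodes lysosomal acid lipase, the target of an inhibitor used in the study, had 4.77 and 6.87, 5.11 and 5.36, and 6.69 and 4.51 TPM in WT libraries at 0, 24 and 48 h. In CIDEA KO libraries it had 6.59 and 6.2, 7.5 and 4.47, and 4.27 and 4.43 TPM, and its change at 48 h was -0.08 ± 0.275 in WT cells.

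**Figure D3:**
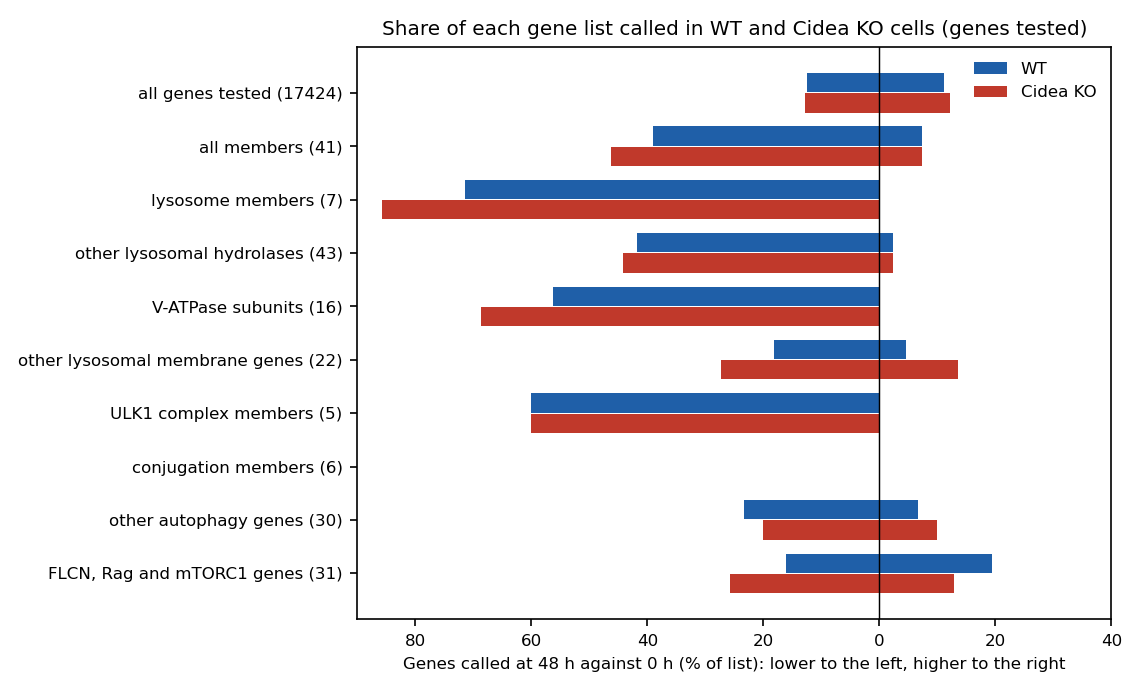
Share of each gene list called by edgeR at 48 h against 0 h, lower to the left and higher to the right, in WT (blue) and CIDEA KO (red) cells, with the number of genes tested in brackets. The V-ATPase list has 9 of 16 genes lower in WT cells and no gene higher, and the 6 conjugation genes have no bar.

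The second question was whether these genes differed between CIDEA KO and WT cells. Over all 3 times, 4 of the 41 genes were lower (*Atg5*, *Tfeb*, *Hexa* and *Ctsl*) and 1 was higher (*Lamp1*) in CIDEA KO cells, beside 2.84% lower and 2.19% higher of all genes. Without *Atg5*, 3 of 40 were lower and 1 was higher. The median difference was -0.02 with and without *Atg5*, and that of all genes tested rounded to 0. At 0 h, *Atg5* was lower and 0 genes were higher, beside 0.987% and 0.275% of all genes. At 24 h, *Atg5* and *Hexa* were lower and 0 were higher, beside 1.02% and 0.448%, and at 48 h *Atg5* was lower and 0 were higher, beside 0.476% and 0.195%. Without *Atg5*, the counts at single times were 0, 1 and 0. Of the pluripotency markers, 2 of 9 naive genes were higher and 3 of 6 primed genes were lower in CIDEA KO cells over all times, and the part of that in the values below was not tested.

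Of the 5 calls over all times, those of *Ctsl* and *Hexa* were lost with transcript lengths as offsets, and with limma on log2(TPM + 1) that of *Tfeb* was lost too. Without CIDEA KO replicate 2 at 24 h, 6 genes were called at 24 h and 8 over all times, and without CIDEA KO replicate 1 at 24 h, 1 and 5. Replicate 1 was the library with the fewest genes with counts, and the part of that in the 24 h values was not tested.

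*Atg5* encodes the protein that is joined to ATG12 and is required for conventional autophagy. Its TPM was 25.6 and 26.9 at 0 h, 29.5 and 27.2 at 24 h and 27.9 and 25.9 at 48 h in WT libraries. In CIDEA KO libraries it was 13.4 and 14.2, 17.5 and 18.9, and 17.6 and 16.0 TPM. All 6 CIDEA KO libraries lay below all 6 WT libraries. Over all times *Atg5* was 1.68-fold lower (log2 difference of -0.75 ± 0.0795, adjusted p = 4.4e-06). The log2 difference was -0.97 ± 0.139 at 0 h (adjusted p = 6.7e-04), -0.66 ± 0.137 at 24 h (adjusted p = 0.0153) and -0.62 ± 0.137 at 48 h (adjusted p = 0.0407). The call at 24 h was lost when either of the WT libraries of that time was left out, and the one at 48 h in 8 of the 12 fits that each left out 1 library, with differences of -0.76 to -0.49. Both were lost with transcript lengths as offsets. In the paper, autophagy flux read from protein blots was not significantly different between CIDEA KO and WT spheroids at 24 h or at 48 h.

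*Atg5* (chr10:44268358-44364291, plus strand, GRCm38) lies in a stretch of chromosome 10 in which most expressed genes were lower in CIDEA KO cells. Of the 37 other genes within 5 Mb of its start and a mean log2 CPM of 1 or more, 36 had a difference below 0 and 30 were called lower, with a median of -0.67. Within 1 Mb, 7 of 9 were called lower, with a median of -0.66. Those 7 ran from *Rtn4ip1* (-0.51 ± 0.112) to *Prdm1* (-0.98 ± 0.112), with *Prep* (-0.61 ± 0.0597) and *Cd24a* (-0.66 ± 0.0656) between them. These neighbours were named after their values were seen. No other of the 41 genes lies on chromosome 10. Among the other pathway lists, 4 genes there were called lower: *Cd164* (-0.58 ± 0.0517), *Sesn1* (-0.56 ± 0.0903), *Ostm1* (-0.80 ± 0.138) and *Psap* (-0.55 ± 0.0459), the last 16.01 Mb from *Atg5* and the precursor of the saposins that activate lipid hydrolases in the lysosome.

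**Figure D4:**
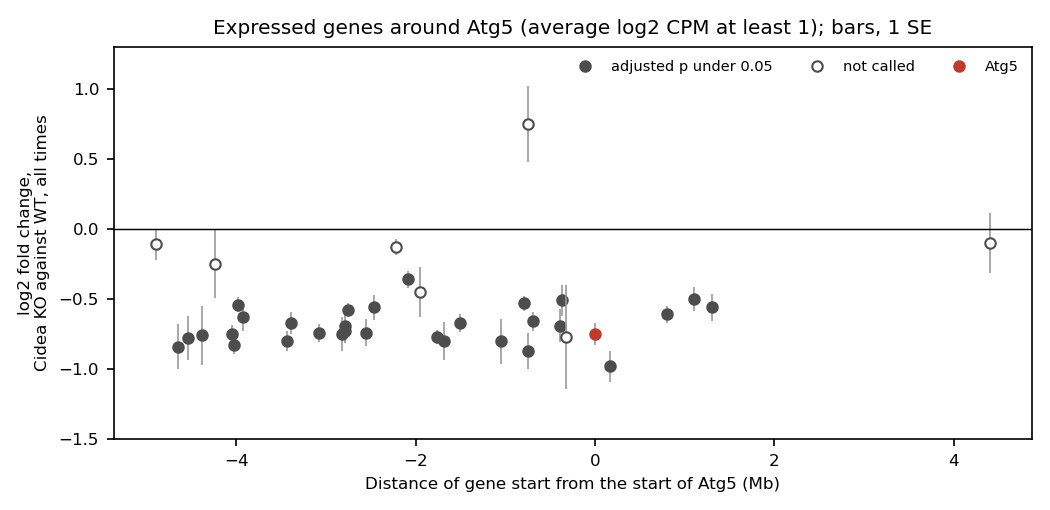
Log2 difference between CIDEA KO and WT cells over all times for each expressed gene within 5 Mb of the start of *Atg5*, against the distance of its start in Mb, with bars of 1 SE. *Atg5* (red, -0.75) lies among its neighbours, of which 36 of 37 are below 0.

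*Tfeb* was 1.45-fold lower in CIDEA KO cells over all times (log2 difference of -0.54 ± 0.0964, adjusted p = 0.00178). It was lower in both CIDEA KO libraries than in both WT libraries at each time. The differences at single times were -0.35 ± 0.156, -0.52 ± 0.166 and -0.74 ± 0.178, none of them called by edgeR (adjusted p = 0.443, 0.158 and 0.0666). *Tfe3* had a difference of -0.15 ± 0.0559 over all times (adjusted p = 0.131) and *Flcn* one of -0.06 ± 0.0551, with a 95% interval of -0.17 to 0.05.

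*Lamp1* was 1.12-fold higher in CIDEA KO cells (log2 difference of 0.17 ± 0.0357, adjusted p = 0.0076), with 592 and 614 TPM against 500 and 531 TPM at 0 h, 404 and 405 against 354 and 346 TPM at 24 h, and 394 and 387 against 352 and 375 TPM at 48 h. The genotypes did not overlap at any of the 3 times. *Ctsl* was 1.15-fold lower (-0.20 ± 0.0517, adjusted p = 0.024), with CIDEA KO values of 264 and 303, 150 and 96.2, and 163 and 143 TPM that overlapped with WT at 0 h and 24 h. Its call was lost in 6 of the 12 fits that each left out 1 library, with differences of -0.24 to -0.16.

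*Hexa* was 1.29-fold lower over all times (-0.36 ± 0.0892, adjusted p = 0.0245), with differences of 0.09 ± 0.149 at 0 h, -0.69 ± 0.16 at 24 h (adjusted p = 0.0382) and -0.49 ± 0.155 at 48 h (adjusted p = 0.268). The call at 24 h was lost in 9 of the 12 fits that each left out 1 library, with differences of -1.04 to -0.41, and the call over all times in 7, with differences of -0.48 to -0.27. Whether the genotype difference changed with time was tested for each gene over the 3 times together. By edgeR, 0 of the 41 genes were called, beside 0.0517% of all genes, and 2 of the 41 (*Hexa* and *Tfe3*) had an unadjusted p under 0.05. The lowest adjusted p was 0.642, for *Hexa*. DESeq2 and limma also called 0.

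**Figure D5:**
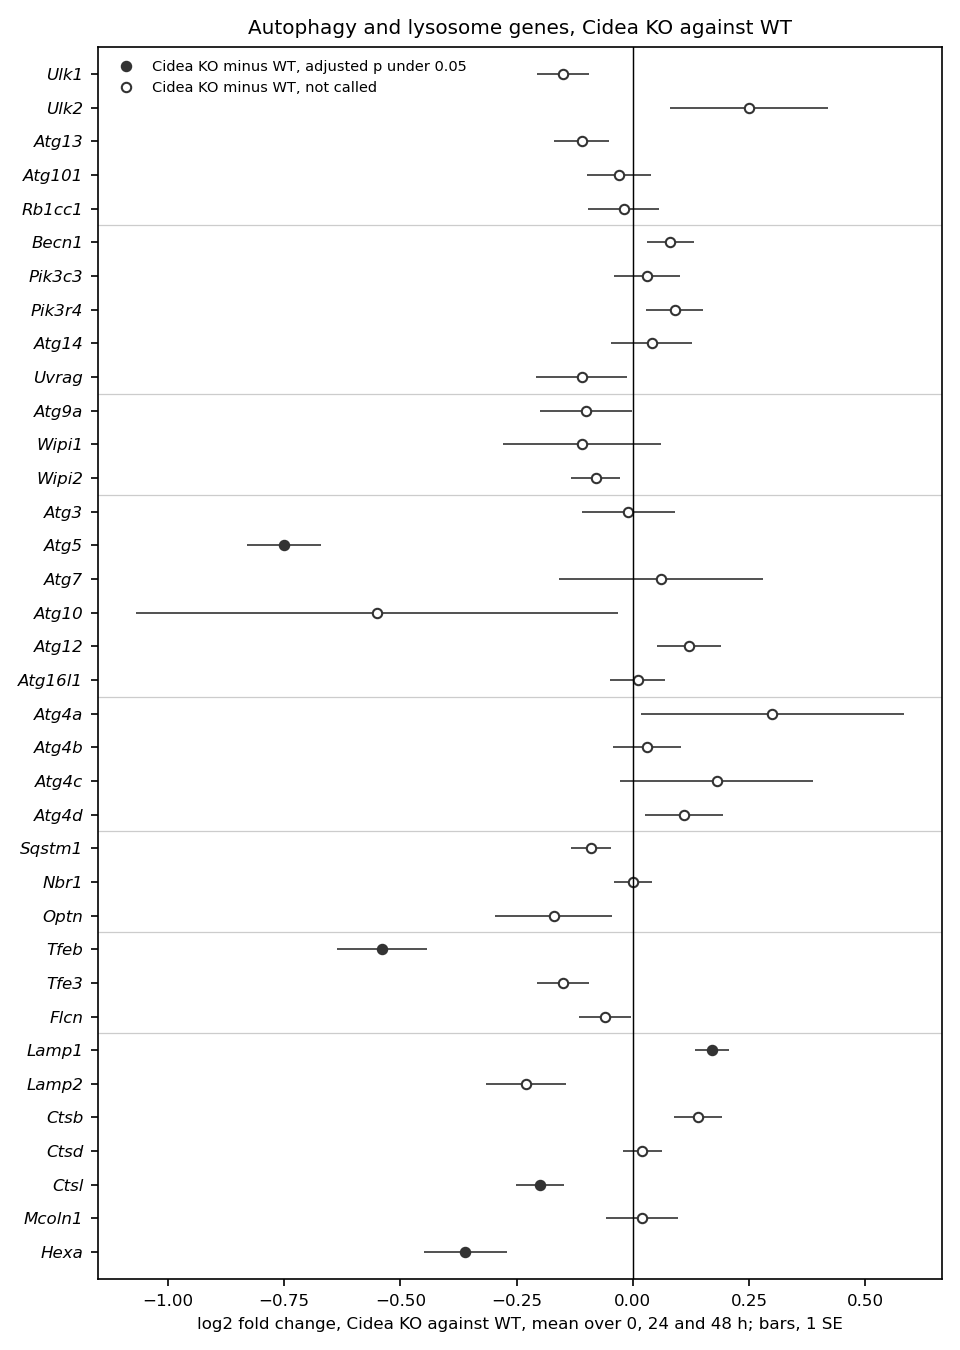
Log2 difference between CIDEA KO and WT cells over all times for 36 of the 41 genes, with bars of 1 SE and filled points for genes called by edgeR. *Atg5* lies farthest to the left at -0.75, and *Lamp1* is the filled point to the right of 0.

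Over all times, 2.84% of all genes tested, chromosome 10 included, were lower in CIDEA KO cells and 2.19% were higher. Among the genes of the other lists outside chromosome 10, 7 of 134 were lower and 7 were higher. The lower ones included *Ctsc* (cathepsin C, -0.79 ± 0.153), *Wdr45* (-0.43 ± 0.102), *Gm2a* (-0.40 ± 0.0941), *Akt1s1* (PRAS40, -0.36 ± 0.103), *Dpp7* (-0.35 ± 0.0872) and *Npc2* (-0.34 ± 0.0689). *Gm2a* encodes the activator that presents GM2 ganglioside to beta-hexosaminidase. The higher ones were *Sidt2* (0.37 ± 0.0894), *Man2b1* (0.34 ± 0.0535), *Acp2* (0.34 ± 0.0847), *Trp53inp1* (0.32 ± 0.0477), *Sesn2* (0.29 ± 0.0498), *Sh3glb1* (0.26 ± 0.0703) and *Manba* (0.20 ± 0.0498). Of the V-ATPase genes 0 of 16 were called by edgeR, with a median of 0.03, and *Lipa* had a difference of -0.02 ± 0.159.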

How the data were processed

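Reads were trimmed with Trimmomatic 0.33 and quantified with kallisto 0.43.1, per the paper and the submitters' processing notes. The tables deposited by the authors give estimated counts, which are neither scaled nor whole, and TPM, which the authors' tool scales by effective length and total. The transcript set and strand setting were not given in the sources used here. Transcripts were matched to GENCODE M21 (GRCm38), with 98.5% matched, and the rest held 0.659% to 0.709% of counts. Gene sums of estimated counts were rounded, and after tests on simulated data were analysed in R 4.3.3 by the robust quasi-likelihood test of edgeR 4.0.16 (TMM scaling, filterByExpr), with a mean for each group and all 12 libraries in the model. Residual spread is shared by all groups. The paper describes the 2 libraries of a group as independent samples and biological replicates. Neither it nor the labels say whether they came from separate cultures, so p-values measure the spread between these libraries. Replicates differed beyond sampling noise (chi-square per degree of freedom 11.2 to 32.7). A floor of 3 counts was 0.0784 to 0.1041 CPM and covers counting error only. Kallisto divides reads among near-identical genes, and exons of *Atg4d*, *Atg9a*, *Becn1*, *Ctsb*, *Lamp1* and *Sqstm1* overlap genes on the opposite strand and those of *Ctsd* a gene on its own strand, so these values are less certain. The members and lists were chosen with earlier results of these data known. Values in every library are given for *Tfe3*, *Flcn*, *Atg5*, genes called between genotypes and, at 48 h against 0 h in WT cells, up to 5 called genes with the largest rise and 5 with the largest fall. From the other lists, *Lipa*, *Mitf*, up to 3 called genes per direction whose mean log2 CPM was 1 or more, and those called between genotypes over all times are named. Alternatives were DESeq2 1.42.0, its size factors in edgeR, no filter, at least 10 counts in every library, average transcript lengths as offsets, limma 3.58.1 on log2(TPM + 1), the replicate number as a block, the compared groups alone, omission of *Atg5* or of each library and, added after seeing the data, protein-coding transcripts alone. Upstream windows came from RefSeq (GRCm38.p6). Protein sequences were not used here, and the separate values of 5 members and of 1 other gene are not reported here.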

Additional observations from a re-analysis of the deposited data

How the results depend on the processing

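DESeq2's size factors in edgeR and the replicate block changed no count by over 1.5 times; with the block, counts were 22, 6 and 20 over time in WT, 19, 8 and 22 in CIDEA KO cells, and 1, 2, 1 and 5 between genotypes. Replicate numbers did not pair the libraries (correlations of deviations between groups of -0.049 to 0.051), so the block is not read further. With average transcript lengths as offsets, calls numbered 12 at 24 h and 2 from 24 h to 48 h in WT cells, 5 from 24 h to 48 h in CIDEA KO cells, and 0 at 24 h, 0 at 48 h and 3 over all times between genotypes. With limma on log2(TPM + 1) these were 11, 2, 3, 0, 0 and 2. Between genotypes at 24 h, DESeq2 and the fit with no filter each called 4, the compared groups alone 0, protein-coding transcripts 1 and omission of *Atg5* 1. At 48 h, DESeq2 called 2, no filter 3, at least 10 counts in every library 2, protein-coding transcripts 0 and omission of *Atg5* 0, which also gave 0 at 0 h. For the interaction, no filter called 1. Leaving out 1 library at a time gave 14 to 22 calls at 24 h in WT cells, 3 to 8 from 24 h to 48 h in WT, 5 to 10 from 24 h to 48 h in CIDEA KO cells (5 without CIDEA KO replicate 1 at 48 h), 0 to 6 at 24 h, 0 to 3 at 48 h and 3 to 8 over all times between genotypes, and 0 to 2 for the interaction. The cause of these shifts was not tested.

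Of 105 calls of single genes, 60 held in every alternative and with each library left out, and 1 changed sign, that of *Atg4d* at 48 h against 0 h in CIDEA KO cells (0.06 with protein-coding transcripts). Uncalled values near 0 also changed sign. *Atg5* at 48 h against 0 h in WT cells was 0.01 with length offsets, 0.04 with limma and -0.19 to 0.06 with 1 library left out (0.06 without WT replicate 2 at 48 h), and from 24 h to 48 h in CIDEA KO cells -0.23 to 0.04 (0.04 without replicate 2 at 48 h). *Flcn* at 48 h against 0 h was 0.01 with limma in WT cells, and in CIDEA KO cells -0.04 with limma, -0.05 with protein-coding transcripts and -0.04 to 0.07 with 1 library left out (-0.04 without replicate 2 at 0 h). Its genotype difference at 24 h was then -0.04 to 0.10 (-0.04 without CIDEA KO replicate 1 at 24 h). That of *Tfe3* at 48 h was -0.07 with length offsets, -0.11 with limma and -0.09 to 0.14 with 1 library left out (-0.09 without CIDEA KO replicate 1 at 48 h).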

Other observations

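The transcripts behind the gene sums were uneven. In 12 of the 41 genes 1 transcript held at least 80% of the TPM over all libraries, among them *Lamp1*, *Ctsd*, *Sqstm1*, *Atg5* and *Hexa*. In 5 genes, among them *Becn1*, *Atg4d*, *Ctsb* and *Mcoln1*, retained-intron transcripts held over 20%. For *Ctsb* these were 55.0%, and the protein-coding transcript Ctsb-201 alone went from 33.7 and 35.0 TPM in WT ESCs to 17.3 and 17 TPM at 48 h, and from 35.1 and 38.8 to 17.5 and 17.1 TPM in CIDEA KO cells.

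*Tfeb* RNA was mainly Tfeb-202, which held 72.1% of its TPM and went from 43.0 and 48.4 TPM in WT ESCs to 3.02 and 4.23 TPM at 48 h. In WT replicate 1 at 48 h, Tfeb-208 had 3.0 TPM and the retained-intron Tfeb-215 4.87 TPM, beside 14.6 TPM for the gene. *Tfe3* was spread over more transcripts, with 28.9% in the leading one, Tfe3-204. Its transcript Tfe3-214 had 0 and 2.96 TPM in WT ESCs and 25.1 and 28.1 TPM at 48 h, and 19.4 and 23.5 TPM at 48 h in CIDEA KO cells. Kallisto divides reads between overlapping transcripts of a gene, so these shares carry more error than the gene sums.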
